A study of Mus musculus with 24 samples.

Results

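The genes described here are 10 genes that mark disease-associated microglia: Itgax, Clec7a, Cst7, Gpnmb, Spp1, Trem2, Tyrobp, Cd9, Lgals3 and Csf1. They were taken by name from a list of genes of this microglial state, and all 10 were found among the 22274 genes of the expression table. The members, the comparisons and the marker lists below were chosen with earlier results of these data known. Microglia are the resident macrophages of the brain, and in models of neurodegeneration, demyelination and injury a part of them turns on a program of lipid handling, lysosomal and phagocytic genes. Entry into that program depends in part on TREM2, a lipid-sensing receptor that signals through the adaptor TYROBP. Peripheral and border macrophages express most of the same genes, and Spp1, Cd9 and Csf1 are also expressed by other cells of the brain.

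RNA was measured by bulk sequencing of hypothalamus and hippocampus from male C57BL/6J mice after pituitary stalk electrical lesion (PEL), an injury of the tract that joins the hypothalamus to the pituitary, or after a sham operation. The hypothalamic groups were Sham, Sham_GH, PEL_3d, PEL_3d_GH, PEL_10d and PEL_10d_GH, where 3d and 10d stand for day 3 and day 10 and GH for growth hormone treatment. The hippocampal groups were HIP_Sham and HIP_PEL_10d, without growth hormone. Each of the 8 groups held 3 libraries, 24 in all. Sham libraries were labelled day 0, so no sham group was matched to day 3 or day 10. The age of the mice and the dose and schedule of growth hormone are not given in the sources used here. Total counts per library ranged from 15095267 to 17973494, with a median of 15883700. The labels do not say that the 3 libraries of a group came from separate animals, so p-values measure the spread between these libraries only. Libraries are named below by group and replicate number.

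Sham 1 and HIP_Sham 1 went against their tissue labels. Sham 1, labelled hypothalamus, had FPKM (fragments per kilobase of transcript, scaled to library size) of 0.453 for Avp and 1.46 for Oxt, the neuropeptides vasopressin and oxytocin of the hypothalamus, against 139.9 and 223 for Avp in Sham 2 and Sham 3. The same library had 261 for Slc17a7 and 92.2 for Neurod6, genes of cortical and hippocampal excitatory neurons, and 14320 for Ttr of the choroid plexus, where Sham 2 had 0.886, 0.246 and 4.86. HIP_Sham 1, titled hippocampus, had 139.0 for Avp, 114 for Oxt, 0.316 for Slc17a7 and 0.429 for Neurod6, while Slc17a7 was 407 and 422 in HIP_Sham 2 and HIP_Sham 3. HIP_Sham 3 carried a hypothalamus tissue field under a hippocampal title, and its Slc17a7 and Neurod6 values (422 and 143) were close to those of the hippocampal libraries. Sham 1 was therefore left out of the fits and levels given for Sham. HIP_Sham 1 was not treated alike: HIP_Sham was used as titled, and the hippocampal values below include that library unless stated. Whether Sham 1 and HIP_Sham 1 were exchanged was not tested. The calls and fold changes of the members that rest on Sham 1 or HIP_Sham 1 are given with and without that library. PEL_10d_GH 3 also stood apart: Pomc, a hormone precursor made in the pituitary and the arcuate nucleus, was 5479 FPKM there and 24.2 and 30.2 in its replicates, and Prl was 32.4.

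All 10 genes rose after the lesion at both days. In PEL_3d against Sham, 10 of 10 members were called higher by edgeR (adjusted p under 0.05), where 22.2% of 14905 tested genes were called higher. The median log2 fold change of the members was 5.25, or 4.81 with Cst7, which had 1 count in Sham 2 and Sham 3 together, set at the lower limit of its counting interval; over all tested genes the median was -0.01. In PEL_10d against Sham, 10 of 10 members were called higher, where 7.97% of 14801 genes were called higher, and the members' median was 4.21 (4.12 with Cst7 at its limit) against -0.01 over all genes. Both comparisons share the libraries Sham 2 and Sham 3. Itgax and Cst7 had too few counts to be tested in Sham_GH against Sham, so here they passed the count filter through the lesioned libraries. Without a count filter, 10 members were called among 6043 genes at day 3 and among 1517 genes at day 10. With Sham 1 kept, 10 members among 1683 genes were still called at day 3, and 6 members among 269 genes at day 10. In bulk tissue, more cells of a type and more RNA per cell cannot be told apart, and likewise fewer cells and less RNA per cell.

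**Figure D1:**
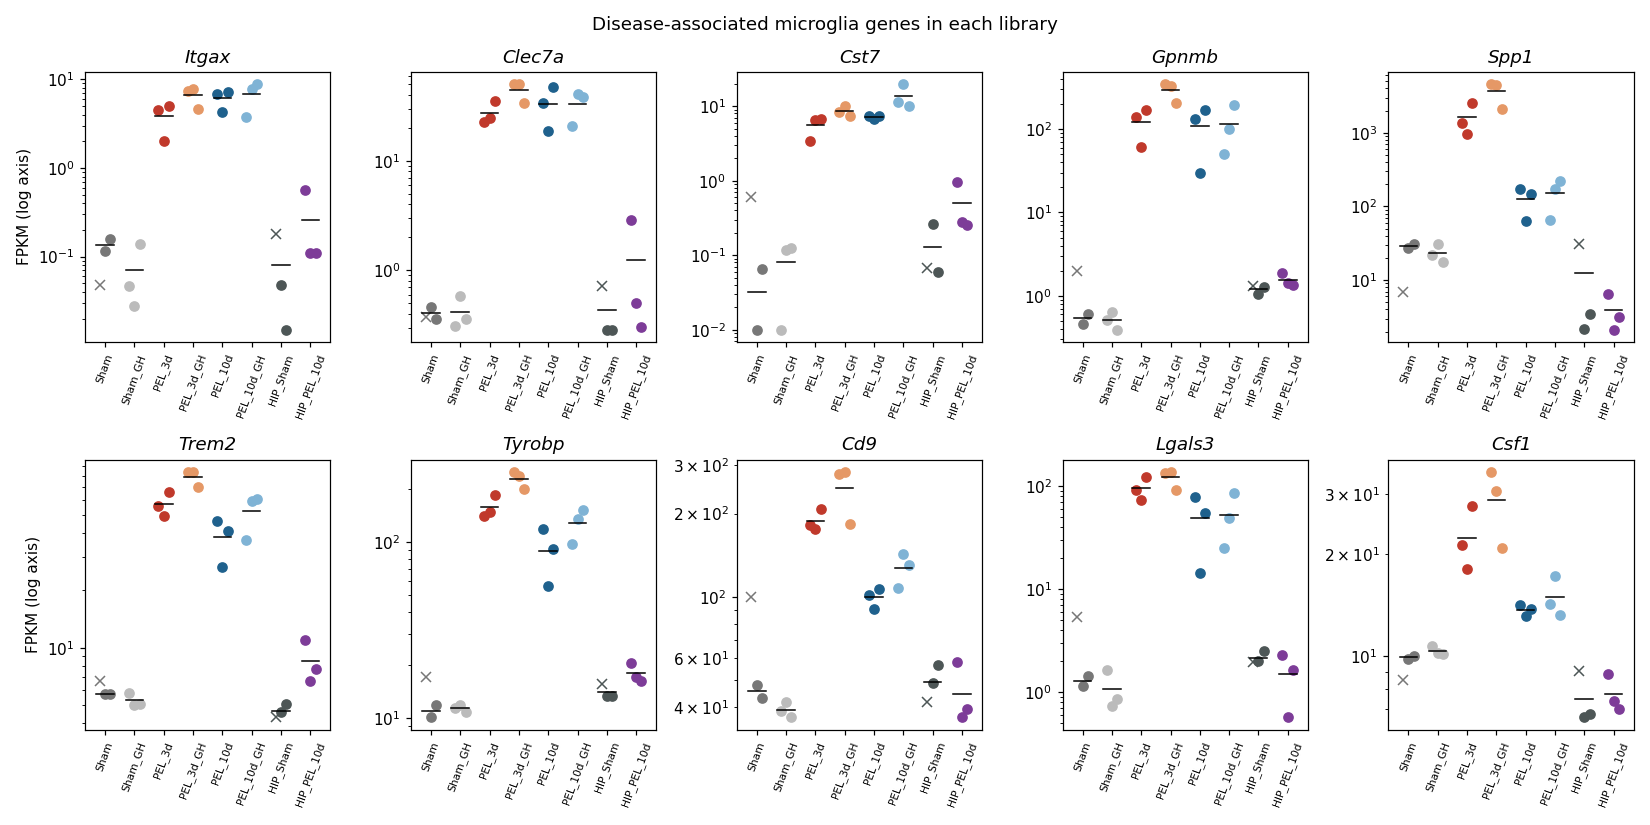
Level of each of the 10 genes in FPKM (vertical, log axis) in every library of the 8 groups (horizontal). Points are libraries, crosses are Sham 1 and HIP_Sham 1, horizontal bars are group means without Sham 1, and values of 0 are drawn at 0.01 FPKM.

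Among the receptors, Trem2 (ENSMUSG00000023992, chr17:48346401-48354147, plus strand of GRCm38) encodes the lipid receptor of the program. Trem2 was at 5.69 and 5.70 FPKM in Sham 2 and Sham 3, at 55.9, 49.1 and 65.6 in PEL_3d and at 46.6, 26.7 and 41.0 in PEL_10d. With growth hormone, Trem2 was at 5.78, 4.99 and 5.09 in Sham_GH, at 84.0, 83.7 and 70.2 in PEL_3d_GH and at 36.9, 59.3 and 60.8 in PEL_10d_GH. Every lesioned library lay above every sham library, and every PEL_3d library lay above every PEL_10d library. The log2 fold change against Sham was 3.30 (SE 0.15, adjusted p = 1.18e-07 by edgeR) at day 3 and 2.72 (SE 0.24, adjusted p = 0.000571) at day 10. Tyrobp (ENSMUSG00000030579, chr7:30413760-30417585, plus strand), the adaptor through which TREM2 signals, was at 10.1 and 11.8 FPKM in Sham 2 and Sham 3, at 140.0, 149 and 186 in PEL_3d and at 118, 56.0 and 91.7 in PEL_10d. In the growth hormone groups Tyrobp was at 11.5, 11.9 and 10.9 in Sham_GH, at 250.3, 236 and 201 in PEL_3d_GH and at 97.9, 135 and 152 in PEL_10d_GH. As for Trem2, the day 3 libraries lay above the day 10 libraries in both arms, and PEL_10d 2 was the lowest lesioned library. Tyrobp rose by a log2 fold change of 3.83 (SE 0.16, adjusted p = 8.47e-08 by edgeR) at day 3 and 2.98 (SE 0.30, adjusted p = 0.00112) at day 10.

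Clec7a (ENSMUSG00000079293, chr6:129461591-129472779, minus strand) encodes dectin-1, a receptor for beta-glucans. Clec7a was at 0.467 and 0.359 FPKM in Sham 2 and Sham 3, at 22.5, 24.8 and 35.0 in PEL_3d and at 33.9, 18.7 and 46.9 in PEL_10d. The PEL_3d and PEL_10d values overlapped, with PEL_10d both lowest and highest. Growth hormone groups had Clec7a at 0.309, 0.589 and 0.362 in Sham_GH, at 50.1, 50.1 and 33.6 in PEL_3d_GH and at 21.0, 40.6 and 38.0 in PEL_10d_GH. Against Sham the log2 fold change of Clec7a was 5.76 (SE 0.31, adjusted p = 3.63e-07 by edgeR) at day 3 and 6.01 (SE 0.50, adjusted p = 0.000472) at day 10. Itgax (ENSMUSG00000030789, chr7:128129547-128150657, plus strand), which encodes the integrin CD11c, was at 0.115 and 0.158 FPKM in Sham 2 and Sham 3, at 4.52, 2.03 and 5.03 in PEL_3d and at 6.86, 4.33 and 7.27 in PEL_10d. It was at 0.047, 0.028 and 0.138 in Sham_GH, at 7.34, 7.86 and 4.68 in PEL_3d_GH and at 3.71, 7.83 and 8.81 in PEL_10d_GH. The 4 lesioned groups of Itgax overlapped one another, and all lay above the sham libraries. Itgax rose by a log2 fold change of 4.74 (SE 0.49, adjusted p = 3.58e-05 by edgeR) at day 3 and 5.43 (SE 0.35, adjusted p = 0.000142) at day 10.

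Among the secreted products, Spp1 (ENSMUSG00000029304, chr5:104435118-104441050, plus strand) encodes osteopontin, a phosphoprotein of the extracellular matrix that binds integrins. Spp1 was at 27.1 and 30.6 FPKM in Sham 2 and Sham 3, at 1349.6, 958 and 2549 in PEL_3d and at 172, 63.3 and 146 in PEL_10d. With growth hormone Spp1 was at 21.6, 31.2 and 17.4 in Sham_GH, at 4560.3, 4378 and 2089 in PEL_3d_GH and at 65.6, 170.5 and 218 in PEL_10d_GH. The lowest day 3 library stood far above the highest day 10 library, and the lowest day 10 library stood above the highest sham library. Spp1 rose by a log2 fold change of 5.79 (SE 0.41, adjusted p = 2.20e-06 by edgeR) at day 3 and 2.11 (SE 0.36, adjusted p = 0.00861) at day 10. Csf1 (ENSMUSG00000014599, chr3:107741048-107760469, minus strand), a growth factor of microglia and macrophages, was at 9.81 and 10.1 FPKM in Sham 2 and Sham 3, at 21.3, 18.1 and 27.6 in PEL_3d and at 14.2, 13.1 and 13.8 in PEL_10d. Csf1 was at 10.7, 10.2 and 10.1 in Sham_GH, at 34.9, 30.7 and 20.9 in PEL_3d_GH and at 14.3, 17.2 and 13.2 in PEL_10d_GH. It had the smallest rise of the 10 in both comparisons, with log2 fold changes of 1.04 (SE 0.14, adjusted p = 0.000182 by edgeR) at day 3 and 0.39 (SE 0.08, adjusted p = 0.0160) at day 10.

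Cst7 (ENSMUSG00000068129, chr2:150570415-150578944, plus strand) encodes cystatin F, an inhibitor of lysosomal cathepsins. Cst7 was at 0 and 0.065 FPKM in Sham 2 and Sham 3, at 3.36, 6.46 and 6.69 in PEL_3d and at 7.38, 6.63 and 7.31 in PEL_10d. In the growth hormone groups Cst7 was at 0, 0.116 and 0.126 in Sham_GH, at 8.24, 9.95 and 7.33 in PEL_3d_GH and at 11.5, 19.7 and 10.1 in PEL_10d_GH. It was low in every sham library, and its highest group was PEL_10d_GH. Because Sham 2 and Sham 3 together held 1 count of Cst7, its change is best read as a ratio of counts per total: 260 counts in PEL_3d gave a ratio of 166 (exact 95% interval 29.5 to 6579, counting error only), and 335 counts in PEL_10d gave 215 (38.3 to 8510.2). Lgals3 (ENSMUSG00000050335, chr14:47367751-47386160, plus strand), which encodes galectin-3, a lectin that binds beta-galactosides, was at 1.16 and 1.45 FPKM in Sham 2 and Sham 3, at 91.3, 73.2 and 124 in PEL_3d and at 79.3, 14.4 and 54.8 in PEL_10d. Lgals3 was at 1.66, 0.741 and 0.867 in Sham_GH, at 136, 138 and 91.6 in PEL_3d_GH and at 25.2, 48.9 and 85.6 in PEL_10d_GH. The PEL_10d libraries spread widely, and the highest of them lay inside the range of PEL_3d. The log2 fold change of Lgals3 was 6.43 (SE 0.30, adjusted p = 1.54e-07 by edgeR) at day 3 and 5.46 (SE 0.82, adjusted p = 0.00513) at day 10.

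Of the membrane proteins, Gpnmb (ENSMUSG00000029816, chr6:49036546-49070929, plus strand) encodes a glycoprotein of endosomes, lysosomes and the cell surface. Gpnmb was at 0.464 and 0.606 FPKM in Sham 2 and Sham 3, at 139, 60.3 and 168 in PEL_3d and at 132, 29.4 and 168 in PEL_10d. Gpnmb was at 0.518, 0.632 and 0.392 in Sham_GH, at 346, 332 and 206 in PEL_3d_GH and at 50.2, 98.9 and 196 in PEL_10d_GH. The PEL_3d and PEL_10d ranges overlapped over most of their length, and the 3 PEL_3d_GH libraries lay above every library of the other groups. Gpnmb rose by a log2 fold change of 7.85 (SE 0.52, adjusted p = 1.60e-06 by edgeR) at day 3 and 7.73 (SE 0.92, adjusted p = 0.00191) at day 10, the largest fitted values among the 10 on both days. Cd9 (ENSMUSG00000030342, chr6:125460266-125494791, minus strand), a tetraspanin found in many brain cells, had the highest sham level of the 10 in FPKM: 48.0 and 43.1 in Sham 2 and Sham 3. Cd9 was at 182, 176 and 208 in PEL_3d, at 102, 90.7 and 107 in PEL_10d, at 278, 283 and 184 in PEL_3d_GH and at 108, 143 and 130.2 in PEL_10d_GH, with Sham_GH at 38.7, 41.5 and 36.9. Each lesioned group of Cd9 was separated from the sham groups and, within its arm, from the other day. Its log2 fold change was 2.03 (SE 0.10, adjusted p = 1.54e-07 by edgeR) at day 3 and 1.11 (SE 0.09, adjusted p = 0.000482) at day 10.

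With Sham 1 kept, the log2 fold changes at day 3 were 5.08 for Itgax, 5.69 for Clec7a, 4.55 for Cst7, 6.89 for Gpnmb, 6.22 for Spp1, 3.20 for Trem2, 3.56 for Tyrobp, 1.52 for Cd9, 5.31 for Lgals3 and 1.14 for Csf1, and all 10 were called. At day 10 with Sham 1 kept, Itgax (5.76), Clec7a (5.93), Cst7 (4.91), Gpnmb (6.76), Trem2 (2.61) and Tyrobp (2.71) were called. Spp1, Cd9, Lgals3 and Csf1 were not, with 2.53, 0.59, 4.33 and 0.48 and edgeR adjusted p from 0.0884 to 0.626; Sham 1 had 99.7 FPKM of Cd9, inside the range of PEL_10d. Leaving out Sham 2 or Sham 3 leaves 1 sham library, so the spread then comes from PEL_10d alone. Without Sham 2, Gpnmb (7.44), Spp1 (2.04), Lgals3 (5.35) and Csf1 (0.39) missed the threshold. Without Sham 3, Spp1 (2.20), Lgals3 (5.59) and Csf1 (0.39) missed it. Their fold changes were near those of the full comparison, and fewer genes over the whole table were called in these fits as well. Csf1 was also not called in 1 fit over all hypothalamic groups (0.41, adjusted p = 0.148 by edgeR). That fit called 9 members among 1454 genes, against 1392 genes in the full comparison. At day 3 all 10 members were called under each alternative that was run. Over all alternatives at day 10 the adjusted p of Cd9 ranged from 1.17e-21 to 0.626 and that of Spp1 from 1.32e-05 to 0.141.

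From day 3 to day 10 without growth hormone, Spp1, Cd9, Tyrobp and Csf1 fell, while the values of Itgax, Clec7a, Cst7, Gpnmb and Lgals3 overlapped between the days. In PEL_10d against PEL_3d 4 of 10 members were called lower by edgeR, where 12.2% of 14807 genes were called lower, and 0 members were called higher, where 6.33% of genes were; at an unadjusted p under 0.05 the count was 6 members and 5021 genes in either direction, and DESeq2 called 5 members and 2809 genes. In FPKM, 5 members (the 4 called and Trem2) had every PEL_10d library below every PEL_3d library, where 19.9% of genes did. The members' median log2 fold change was -0.61 against 0.01 over all tested genes. Spp1 fell by 3.67 on the log2 scale (95% interval -4.65 to -2.70, adjusted p = 0.000501 by edgeR), Cd9 by 0.91 (-1.11 to -0.72, adjusted p = 0.000130), Tyrobp by 0.84 (-1.33 to -0.35, adjusted p = 0.0278) and Csf1 by 0.64 (-0.92 to -0.37, adjusted p = 0.00682). Trem2 had a log2 fold change of -0.57 (adjusted p = 0.0564 by edgeR), Lgals3 -0.97, Gpnmb -0.11, Clec7a 0.26, Cst7 0.37 and Itgax 0.69, and none of these 6 passed the threshold in that fit. With the replicate number as a block, 7 members were called among 3367 genes: Itgax was higher (0.74, adjusted p = 0.00261 by edgeR), and Trem2 (-0.59) and Lgals3 (-1.15) were lower beside the 4 above. Over all alternatives the adjusted p of Itgax ranged from 0.00261 to 0.329 and that of Lgals3 from 0.0193 to 0.401. Itgax had an interval of 0.01 to 1.38 and Gpnmb of -1.30 to 1.07, so changes in either direction of about 2-fold in Gpnmb were within its error. Tyrobp was not called without PEL_3d 1, PEL_3d 3 or PEL_10d 3 (3 members called, among 1629, 1333 and 2247 genes). Trem2 was called without PEL_10d 1 (5 members among 2799 genes).

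With growth hormone in both groups, PEL_10d_GH against PEL_3d_GH called 5 of 10 members lower by edgeR, where 10.8% of 14838 genes were called lower, and 0 higher, where 4.81% of genes were; 8 members and 4934 genes had an unadjusted p under 0.05, and DESeq2 called 6 members and 2910 genes. In FPKM, 7 members had every day 10 library below every day 3 library, where 19.7% of genes did. These were Spp1, Trem2, Tyrobp, Cd9, Csf1, Gpnmb and Lgals3. Cst7 had every day 10 library above, as had 2343 of 14838 genes. The members' median log2 fold change was -0.85 against 0.00 over all genes. Spp1 fell by 4.62 (95% interval -5.68 to -3.55, adjusted p = 0.000755 by edgeR), Cd9 by 0.97 (adjusted p = 0.00592), Csf1 by 0.86 (adjusted p = 0.00853), Tyrobp by 0.84 (adjusted p = 0.00767) and Trem2 by 0.61 (adjusted p = 0.0445). Gpnmb had a log2 fold change of -1.32 (adjusted p = 0.0624 by edgeR), Lgals3 -1.18 (adjusted p = 0.0549) and Cst7 0.69 (adjusted p = 0.0929). Cst7 stayed above 0 in every alternative run, with an adjusted p by edgeR or DESeq2 from 0.0445 to 0.281. The lowest of these passed the threshold, as a rise. The number called was 2 without PEL_3d_GH 1, where Trem2, Tyrobp and Csf1 missed the threshold, and 7 without PEL_3d_GH 3 or PEL_10d_GH 3, where Gpnmb and Lgals3 passed it. Over all genes 704, 4435 and 1732 were called in these 3 fits, against 2315 with every library. Trem2 also missed the threshold without PEL_3d_GH 2, PEL_10d_GH 1 or PEL_10d_GH 2 (4 members called in each, among 1070, 1169 and 967 genes). It missed it too with the replicate number as a block, DESeq2 size factors in edgeR or a filter at mean count 50. These fits called 4 members each, among 1109, 2350 and 2176 genes. Over all alternatives the adjusted p of Trem2 ranged from 0.00650 to 0.165.

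**Figure D2:**
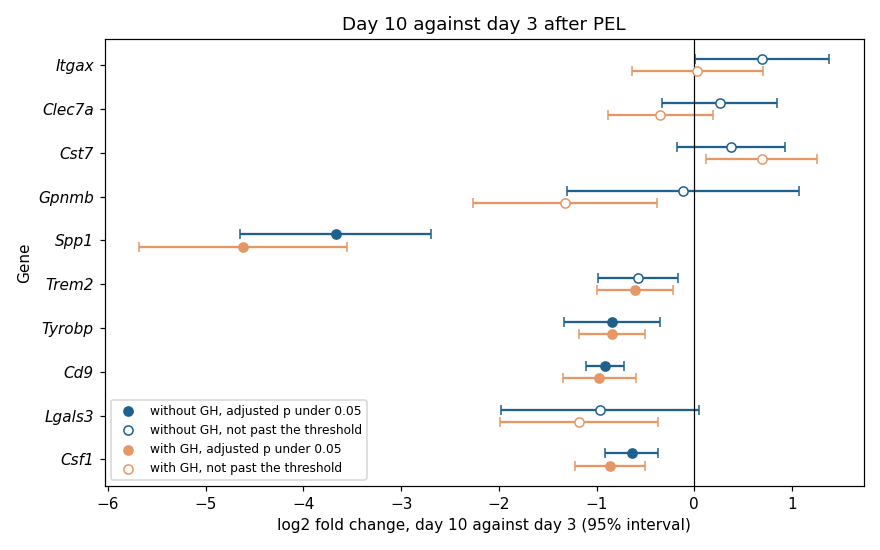
Log2 fold change of each member in PEL_10d against PEL_3d and in PEL_10d_GH against PEL_3d_GH, with 95% intervals from the edgeR fits. Spp1 lies at -3.67 and -4.62, and the intervals of the other members lie between -2.26 and 1.38.

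Whether the change from day 3 to day 10 differed with growth hormone was tested as an interaction over the 12 lesioned hypothalamic libraries. The edgeR interaction called 0 members and 0 genes (higher 0.0%, lower 0.0% of 15091); 0 members and 440 genes had an unadjusted p under 0.05, and DESeq2 called 0 genes. The log2 difference was -1.19 for Gpnmb (95% interval -2.90 to 0.52), -0.93 for Spp1 (-2.37 to 0.51) and 0.01 for Tyrobp (-0.65 to 0.68). These intervals span more than a 2-fold difference for Gpnmb and Spp1, so a missed threshold does not show that the arms changed alike.

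Growth hormone at day 3 went with higher fitted levels of every member, none of which passed the test. In PEL_3d_GH against PEL_3d 0 of 10 members were called higher by edgeR, where 0.027% of 14798 genes were (4 genes); 8 members and 1006 genes (571 higher, 435 lower) had an unadjusted p under 0.05, and DESeq2 called 2 members, Trem2 and Tyrobp, among 59 genes. In FPKM, Cst7, Gpnmb, Trem2 and Tyrobp (4 members) had every PEL_3d_GH library above every PEL_3d library, where 4.54% of genes did. The members' log2 fold changes ran from 0.33 for Lgals3 to 1.29 for Gpnmb, with a median of 0.60 against 0.01 over all genes. Of all tested genes, 51.6% had a fitted value above 0. Fitted values above 0 were also found for 24 of 25 further disease-associated genes (median 0.34), 11 of 13 signalling (0.11), 9 of 11 pan-myeloid (0.29), 7 of 7 border macrophage (0.36), 6 of 6 proliferation (0.12), 4 of 4 red blood cell (0.74), 6 of 7 astrocyte (0.12), 5 of 7 oligodendrocyte (0.09) and 8 of 11 hypothalamic genes (0.27), lists described below. They were found for 5 of 14 homeostatic (-0.03), 3 of 9 blood (-0.69) and 0 of 8 neuron genes (-0.13), and 0 genes of each list were called. Gpnmb had an interval of 0.57 to 2.01 (adjusted p = 0.439 by edgeR), Spp1 a log2 fold change of 1.20 (0.38 to 2.03, adjusted p = 0.651) and Tyrobp 0.55 (0.28 to 0.82, adjusted p = 0.360). PEL_3d_GH 3 was the lowest of its group for all 10 members, and without it Clec7a and Cd9 were called (2 members) among 56 genes. By DESeq2 the adjusted p was 0.0293 for Trem2 and 0.0131 for Tyrobp, and over all alternatives the adjusted p of each reached 0.9998.

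At day 10 the growth hormone groups overlapped for most members. In PEL_10d_GH against PEL_10d 0 of 10 members were called by edgeR, where 0.0% of 14763 genes were called higher; 2 members and 906 genes had an unadjusted p under 0.05, and DESeq2 called 0 members among 39 genes. Cst7 and Cd9 (2 members) had every PEL_10d_GH library above every PEL_10d library in FPKM, where 5.28% of genes did. The median log2 fold change of the members was 0.21 against 0.00 over all genes. Fitted values were above 0 for 10 of 10 members and for 50.3% of all tested genes. Also above 0 were 14 of 14 homeostatic (median 0.40), 11 of 11 pan-myeloid (0.44), 21 of 25 further disease-associated (0.30), 12 of 13 signalling (0.22), 7 of 7 border macrophage (0.34), 7 of 9 blood (0.52), 5 of 5 red blood cell (0.74), 7 of 7 oligodendrocyte (0.24) and 2 of 8 neuron genes (-0.03), with 0 called. Fitted values were also above 0 for 3 of 3 anterior pituitary (2.41), 6 of 7 astrocyte (0.18) and 8 of 11 hypothalamic genes (0.30). They were above 0 for 3 of 3 dendritic cell (0.16) and 5 of 6 T cell genes (0.06). Of hippocampal, choroid plexus and proliferation genes, 3 of 8 (-0.03), 2 of 7 (-0.02) and 3 of 6 (-0.03) were above 0. The anterior pituitary sum was highest in PEL_10d_GH 3, at 5555 FPKM. The red blood cell sum was 213, 66.2 and 44.9 FPKM in PEL_10d_GH and 26.3, 42.0 and 126 in PEL_10d. Every pan-myeloid sum in PEL_10d_GH, given below, lay above those in PEL_10d. Their part in the members' values was not tested. Cst7 had a log2 fold change of 0.96 (95% interval 0.41 to 1.51, adjusted p = 0.629 by edgeR) and Cd9 of 0.36 (0.11 to 0.60, adjusted p = 0.737). Gpnmb, at 0.08 (-1.28 to 1.44), had the widest interval, and its value was -0.54 without PEL_10d_GH 3 and -0.37 without PEL_10d 2. Over all members, 11 of 120 values under the alternatives changed sign, each when a library was left out. They belonged to Itgax, Clec7a, Gpnmb, Spp1 and Lgals3.

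In sham animals, growth hormone moved no member past the threshold. Sham_GH against Sham called 0 of 8 tested members by edgeR, where 0.798% of 14539 genes were called higher and 0.296% lower; Itgax and Cst7 had too few counts to be tested. Cd9 alone of the members had an unadjusted p under 0.05, as had 2187 genes, and DESeq2 called 0 members among 266 genes. Cd9 had a log2 fold change of -0.21 (95% interval -0.37 to -0.04, adjusted p = 0.232 by edgeR), and of -0.73 (adjusted p = 0.697) with Sham 1 kept. The other values without and with Sham 1 were -0.08 and -1.07 for Gpnmb, -0.12 and -1.27 for Lgals3, -0.09 and -0.21 for Trem2, 0.07 and -0.22 for Tyrobp, 0.01 and -0.08 for Clec7a and -0.02 and 0.06 for Csf1, with adjusted p of at least 0.697. Spp1 had a log2 fold change of -0.29 (adjusted p = 0.460), which was called without Sham_GH 2 at -0.55 (adjusted p = 0.0311) and was 0.12 with Sham 1 kept (adjusted p = 0.933), the range over its alternatives. With Sham 1 kept 0 genes in all were called, against 159 without it. Fitted values without Sham 1 were below 0 for 13 of 14 homeostatic (median -0.23) and 10 of 11 pan-myeloid genes (-0.13). So were 4 of 4 red blood cell (-0.28), 5 of 5 anterior pituitary (-1.07) and 3 of 4 proliferation genes (-1.12). Above 0 were 6 of 7 astrocyte (0.04), 5 of 8 neuron (0.06) and 12 of 22 further disease-associated genes (0.02). In each of these lists 0 genes were called.

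Against their own sham group, the lesioned growth hormone groups again had every member higher. PEL_3d_GH against Sham_GH called 10 of 10 members higher, where 26.9% of 14743 genes were, with a median log2 fold change of 6.46 (5.87 with Cst7 at its limit). PEL_10d_GH against Sham_GH called 10 of 10, where 17.7% of 14686 genes were, with a median of 4.59. These comparisons share the 3 Sham_GH libraries and used neither Sham 1 nor the other sham libraries. Itgax and Cst7 again passed the count filter through the lesioned libraries. Each kept 10 members called when any library was left out. Over all genes, 6232 to 8815 were called in those fits at day 3 and 3121 to 5376 at day 10. Gpnmb had the largest fitted log2 fold changes, 9.21 (SE 0.28) at day 3 and 7.90 (SE 0.60) at day 10, and Csf1 the smallest, 1.42 (SE 0.14) and 0.57 (SE 0.09). The counts of Cst7 per total were 103 times those of Sham_GH at day 3 (exact 95% interval 39.8 to 378) and 165 times at day 10 (64.3 to 609).

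In the hippocampus no member passed the test, and the level of every member was below that of every lesioned hypothalamic library. HIP_PEL_10d against HIP_Sham called 0 of 8 tested members by edgeR, where 0.0% of 14039 genes were called higher; 2 members and 1434 genes had an unadjusted p under 0.05, and DESeq2 called 0 members among 231 genes. Trem2 was at 4.30, 4.60 and 5.04 FPKM in HIP_Sham and at 11.0, 6.69 and 7.73 in HIP_PEL_10d, and Tyrobp was at 15.6, 13.3 and 13.3 against 20.6, 17.1 and 16.4. Trem2, Tyrobp and Gpnmb (3 members) had every HIP_PEL_10d library above every HIP_Sham library, where 8.66% of genes did; without HIP_Sham 1, Itgax, Clec7a and Csf1 did as well (6 members), where 24.5% of genes did. The log2 fold change was 0.90 for Trem2 (95% interval 0.33 to 1.48, adjusted p = 0.380 by edgeR) and 0.41 for Tyrobp (0.10 to 0.72, adjusted p = 0.412). HIP_PEL_10d 1 was the highest hippocampal library for Clec7a, with 2.91 FPKM against 0.509 and 0.307 in its replicates, and Clec7a had a log2 fold change of 1.20 (-0.58 to 2.98), or 1.47 without HIP_Sham 1. Without HIP_Sham 1, which carried the hypothalamic transcripts, 873 genes and 0 members were called, with log2 fold changes of 0.79 for Trem2 (adjusted p = 0.0834) and 0.40 for Tyrobp (adjusted p = 0.129); over all alternatives Trem2 ranged from 0.0704 to 0.938 and Tyrobp from 0.129 to 0.938. Spp1 was 31.3 FPKM in HIP_Sham 1 and 2.17 and 3.48 in the other HIP_Sham libraries, and its log2 fold change was -1.50 with HIP_Sham 1 and 0.44 without it. The other values with and without HIP_Sham 1 were 0.40 and 0.36 for Gpnmb, -0.10 and -0.27 for Cd9, -0.60 and -0.77 for Lgals3 and 0.13 and 0.24 for Csf1, none of them called.

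The marker lists of the hippocampus had 0 genes called in the fit as titled. In HIP_PEL_10d against HIP_Sham, fitted values were above 0 for 14 of 14 homeostatic (median 0.32), 11 of 11 pan-myeloid (0.41), 4 of 4 red blood cell (1.54), 8 of 10 hippocampal (0.60) and 11 of 21 further disease-associated genes, and for 0 of 7 choroid plexus and 0 of 3 border macrophage genes. These fitted values include HIP_Sham 1. The mean hippocampal sum was 319 FPKM in HIP_PEL_10d, above the 246 of HIP_Sham but below its 348 without HIP_Sham 1. Its direction thus turned without that library. The mean homeostatic, pan-myeloid, red blood cell, choroid plexus and border macrophage sums kept their direction without it. The pan-myeloid sum was 168, 140 and 147 FPKM in HIP_PEL_10d and 123, 109 and 115 in HIP_Sham. The choroid plexus sum, mostly Ttr outside HIP_Sham 1, was 132, 38.7 and 798 in HIP_PEL_10d and 23.7, 4340 and 5435 in HIP_Sham. The red blood cell sum was 49.4, 144 and 114 and then 60.2, 37.1 and 21.6. Their part in the members' values was not tested.

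Across the 6 hypothalamic groups, 8 of the 10 members had their highest mean FPKM in PEL_3d_GH; Itgax and Cst7 had it in PEL_10d_GH. Spp1, Trem2, Gpnmb, Cd9 and Lgals3 shared 1 order of group means, PEL_3d_GH above PEL_3d, PEL_10d_GH, PEL_10d, Sham and Sham_GH, and Tyrobp and Csf1 differed from it only in the order of the sham groups. Along that order PEL_3d_GH was separated from PEL_3d for Trem2, Tyrobp and Gpnmb and overlapped it for Spp1, Cd9, Lgals3 and Csf1. PEL_3d was separated from PEL_10d_GH for Spp1, Cd9 and Csf1, and PEL_10d_GH from PEL_10d only for Cd9. Clec7a ran from PEL_3d_GH through PEL_10d, PEL_10d_GH and PEL_3d, Itgax from PEL_10d_GH through PEL_3d_GH, PEL_10d and PEL_3d, and neighbouring lesioned groups overlapped for both. Cst7 had the lesioned groups in the same order as Itgax, with PEL_10d_GH separated from PEL_3d_GH. For all 10 genes the lowest lesioned group was separated from the highest sham group.

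In FPKM, the summed level of the 10 genes was dominated by Spp1 at day 3. The sum was 103 and 104 in Sham 2 and Sham 3, 2009.7, 1517 and 3374 in PEL_3d, 5756, 5549.7 and 2909 in PEL_3d_GH, 712, 323 and 683 in PEL_10d and 434, 741 and 912 in PEL_10d_GH. Spp1 stood above each of the other members in every day 3 library, and Cd9, Gpnmb and Tyrobp were of its order at day 10. Over the 17 hypothalamic libraries without Sham 1, each member's z-scored log2(FPKM + 0.1) followed the mean of the other 9 with a Pearson r from 0.841 for Csf1 and 0.863 for Spp1 to 0.994 for Trem2 and 0.995 for Tyrobp. These libraries fall into separate sham and lesioned clusters, so these r describe that separation.

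The 10 genes outside the list whose pattern was most like the members' mean, among 13385 genes with a mean of at least 1 FPKM, were Mpeg1 (r 0.997), Cd68 (0.995), Fcgr3 (0.995), Cd300c2, Cd53, Unc93b1, Fcer1g, C3ar1, Cd84 and Gm49339 (0.993). Mpeg1 encodes a pore-forming protein of macrophages, Cd68 a lysosomal membrane protein of macrophages, and Fcgr3 and Fcer1g parts of Fc receptors. Mean FPKM of Mpeg1 was 7.57 in Sham, 150.4 in PEL_3d, 201 in PEL_3d_GH, 72.5 in PEL_10d and 86.4 in PEL_10d_GH. With a pseudocount of 1 in place of 0.1, 6 of these 10 genes were again among the nearest 10.

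Most further genes of the same microglial program moved with the members, in a list that was also chosen with earlier results known. Of 25 further disease-associated genes tested, 21 rose and 2 fell in PEL_3d against Sham (median log2 fold change 2.02), 18 rose and 1 fell in PEL_10d against Sham (1.26), and 1 rose and 15 fell in PEL_10d against PEL_3d (-0.62). In Sham_GH against Sham, 22 of these 25 had counts enough to be tested. Ctsd, the lysosomal protease cathepsin D, rose by 3.19 at day 3 and 1.84 at day 10, and fell by 1.34 between the days. Lyz2, a lysozyme of myeloid cells, rose by 5.46 and 4.93, and was not called between the days without growth hormone. Apoe, a lipid carrier made by astrocytes and by activated microglia, was the gene that rose from day 3 to day 10, by 0.71 (SE 0.12, adjusted p = 0.00408 by edgeR): it was at 1339 and 1396 FPKM in Sham 2 and Sham 3, 2111, 1892 and 2254 in PEL_3d, and 3710.2, 2740.2 and 3755 in PEL_10d. Apoe was at 3667, 3505 and 2882 in PEL_3d_GH and 3397, 5119.6 and 4573 in PEL_10d_GH, where the ranges of the days overlapped. With growth hormone in both groups, 15 of the 25 fell between the days and 0 rose by edgeR; Ctsd fell by 1.54, Ctsb by 1.17, Lyz2 by 1.65 and Cd63 by 0.67.

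Of the 14 genes of TREM2-TYROBP and CSF1 signalling, 13 were tested. In PEL_3d against Sham 11 rose and 1 fell, in PEL_10d against Sham 7 rose, and in PEL_10d against PEL_3d 8 fell. Csf1r, the receptor for CSF1 and IL34, rose by 2.13 at day 3 and 1.23 at day 10 and fell by 0.89 between the days. Il34, a second ligand of that receptor that neurons make, fell by 0.39 (adjusted p = 0.0113 by edgeR) at day 3. Spi1, which encodes the transcription factor PU.1, rose by 2.46 at day 10 and fell by 1.18 between the days, and Inpp5d, a phosphatase that limits signalling from the receptor, rose by 1.69 and fell by 1.41.

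All homeostatic and general myeloid markers tested rose at day 3, and at day 10 all of the general and a part of the homeostatic ones did. Of 14 homeostatic microglial genes, 14 rose in PEL_3d against Sham (median 1.95), 10 rose in PEL_10d against Sham (0.76) and 14 fell in PEL_10d against PEL_3d (-1.08). Fcrls rose by 3.55 at day 3 and 1.48 at day 10 and fell by 2.07 between the days. P2ry12 and Tmem119, named here after their values were seen because they are the usual homeostatic markers, were at 17.8 and 15.1 FPKM and 6.56 and 7.49 in Sham 2 and Sham 3. P2ry12 was at 35.7, 34.7 and 37.3 in PEL_3d and 15.004, 14.7 and 19.6 in PEL_10d, and Tmem119 was at 23.1, 23.4 and 24.4 and then 9.26, 9.50 and 8.14. P2ry12 in PEL_10d overlapped the sham libraries while Tmem119 lay above them. Of 11 pan-myeloid genes, 11 rose at day 3 (3.22), 11 rose at day 10 (2.12) and 11 fell between the days (-1.12); C1qa, a complement component and the most abundant of them, rose by 3.16 and 2.12 and fell by 1.03.

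The summed FPKM of the pan-myeloid genes was 110 and 122 in Sham 2 and Sham 3, 1102, 1031 and 1332 in PEL_3d, and 606, 440.1 and 525 in PEL_10d. It was 1585, 1533 and 1232 in PEL_3d_GH and 711, 873 and 767 in PEL_10d_GH, with no gene at 0 in any of these libraries. The homeostatic sum was 185 and 177 in Sham 2 and Sham 3, 847, 879 and 899 in PEL_3d, and 379, 358 and 397 in PEL_10d. What part of the change of the 10 members goes with a change in the number of myeloid cells was not tested.

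**Figure D3:**
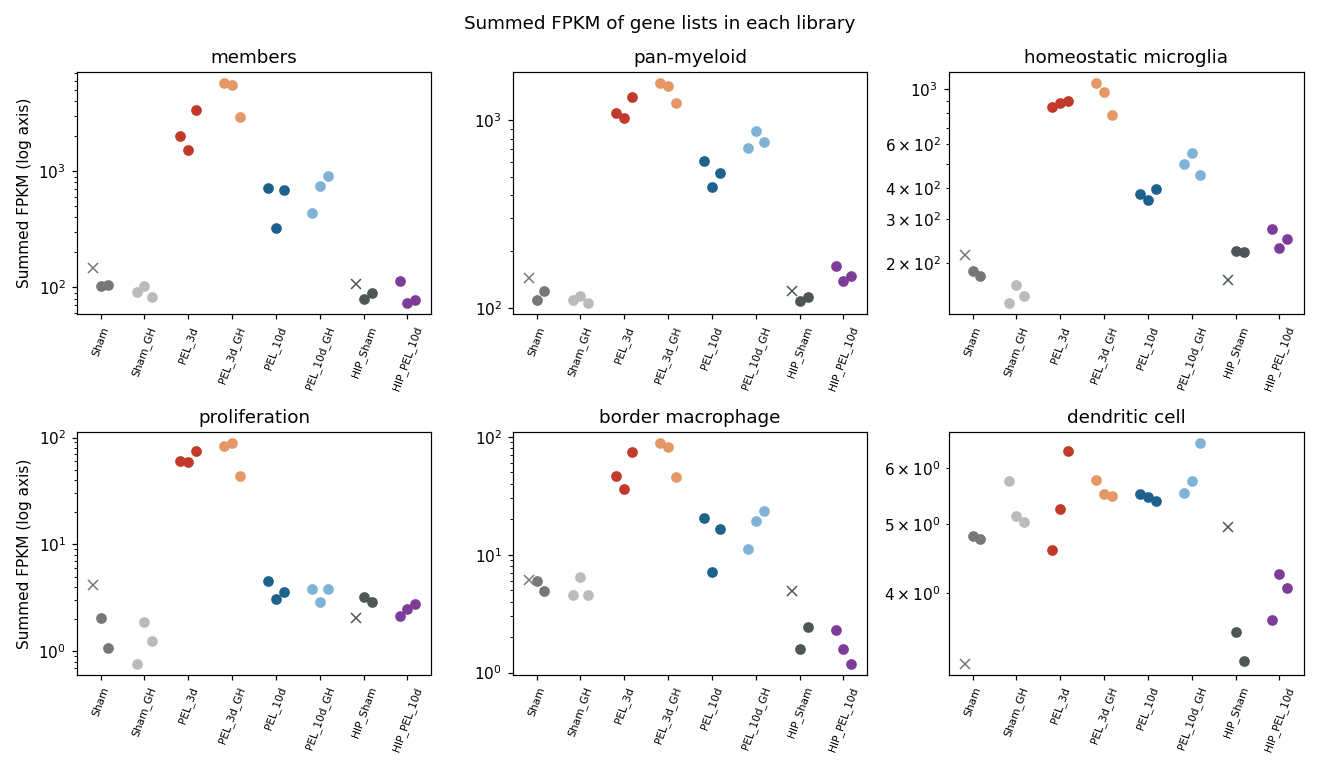
Summed FPKM (vertical, log axis) of the members and of 5 marker lists in every library of the 8 groups (horizontal), with points for libraries and crosses for Sham 1 and HIP_Sham 1. Members, pan-myeloid, homeostatic, proliferation and border macrophage sums are higher in each PEL_3d and PEL_3d_GH library than in the sham libraries, and the dendritic cell sum lies between 3.18 and 6.50 in all 24.

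Proliferation genes marked day 3. All 6 rose in PEL_3d against Sham (median 5.27), 2 rose in PEL_10d against Sham and 6 fell in PEL_10d against PEL_3d (-4.34). Only 4 of the 6 had counts enough to be tested in Sham_GH against Sham. Their called share against sham groups is therefore not read. Cdk1, the kinase that drives entry into mitosis and the most abundant of the 6, rose by 5.63 at day 3 and 1.87 at day 10 and fell by 3.75 between the days, and Top2a rose by 5.63 and fell by 4.39. The summed FPKM of the 6 was 2.04 and 1.08 in Sham 2 and Sham 3, 60.7, 58.5 and 75.7 in PEL_3d, 84.2, 88.6 and 43.5 in PEL_3d_GH, and at most 4.55 in PEL_10d and PEL_10d_GH. Which cells carried these transcripts was not tested.

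Without growth hormone, the summed FPKM of border macrophage and of blood monocyte and neutrophil markers was higher in every PEL_3d than PEL_10d library. In Sham 2 and Sham 3 both sums lay below those of every lesioned library. Of 7 border macrophage genes, 6 rose in PEL_3d against Sham, 1 of 6 tested rose in PEL_10d against Sham, and 4 of 7 fell in PEL_10d against PEL_3d. F13a1, the most abundant, rose by 3.73 at day 3 and fell by 3.11 between the days, Pf4 rose by 4.54 and fell by 4.06, and Ms4a7 rose by 4.65 and 4.61. Their sum was 5.98 and 4.95 FPKM in Sham 2 and Sham 3, 46.1, 36.3 and 74.5 in PEL_3d, 88.4, 82.2 and 45.6 in PEL_3d_GH, 20.5, 7.09 and 16.5 in PEL_10d and 11.2, 19.4 and 23.3 in PEL_10d_GH, with no gene at 0. Of the 10 blood monocyte and neutrophil genes, 9 rose at day 3, 3 rose at day 10 and 4 fell between the days. Without a count filter 9 and 3 were again called against Sham, and with a filter at mean count 50, 4 and 0. In Sham_GH against Sham, only 3 of the 10 blood genes and 5 of the 7 border macrophage genes had counts enough to be tested. The number of border macrophage, blood and T cell genes tested thus depends on their level in the lesioned libraries. The called share of those tested is not read. Chil3 was at 0.172 and 0.083 FPKM in Sham 2 and Sham 3, at 7.25, 9.36 and 15.3 in PEL_3d and at 0.617, 0.351 and 0.127 in PEL_10d. The blood sum was 6.42 and 3.02 FPKM in Sham 2 and Sham 3, 24.6, 33.1 and 58.6 in PEL_3d, 27.7, 28.5 and 18.3 in PEL_3d_GH, 16.3, 11.2 and 6.79 in PEL_10d, and 36.4, 18.5 and 17.5 in PEL_10d_GH. S100a9 was the most abundant of the blood genes, with 18.1 FPKM in PEL_10d_GH 1, and the neutrophil marker Ly6g was at 0 in Sham 2, Sham 3 and the PEL_10d libraries. The part of these cells in the members' levels was not tested.

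Dendritic cell and T cell markers were low throughout. Of 8 dendritic cell genes 2 were tested and 0 were called by edgeR in the 3 comparisons of PEL_3d, PEL_10d and Sham, and Zbtb46, the most abundant, was between 2.09 and 2.61 FPKM in PEL_3d and PEL_10d. Of 8 T cell genes, Cd3g was at 0 in Sham 2 and Sham 3 and at 0.743, 0.821 and 0.317 FPKM in PEL_10d, and its test against a group at 0 is not read. No other T cell gene was called in PEL_10d against Sham, and no T cell gene was called in PEL_3d against Sham (3 tested) or PEL_10d against PEL_3d (3 tested). The T cell sum was 3.20 and 3.77 FPKM in Sham 2 and Sham 3, 2.99, 2.59 and 2.43 in PEL_3d and 6.95, 6.23 and 4.29 in PEL_10d.

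Markers of other cells of the region were called as well. In PEL_3d against Sham, PEL_10d against Sham and PEL_10d against PEL_3d, 1, 3 and 6 of 7 oligodendrocyte genes rose. Of 8 neuron genes, 6 fell at day 3, 1 fell at day 10 and 2 rose between the days, and of 7 astrocyte genes 5 rose and 2 fell, 3 rose, and 2 rose and 2 fell. Of 11 hypothalamic genes, 7 fell at day 3, 2 fell at day 10 and 2 rose between the days. Of the hippocampal genes, 1 rose and 3 fell of 7 tested at day 3, 1 of 7 rose at day 10 and 1 of 7 rose between the days. Of 7 choroid plexus genes, 1 rose and 3 fell at day 3, 0 were called at day 10 and 4 rose between the days. Of the anterior pituitary genes 3 of 6 tested fell at day 3, and 0 of 4 and 0 of 2 were called in the other comparisons. Of the red blood cell genes 0 of 4 tested were called in either comparison with Sham and 1 of 4 rose between the days. In the comparisons of growth hormone with none, in the hippocampus and in the interaction, 0 genes of every list were called by edgeR. Without HIP_Sham 1, 6 choroid plexus, 4 hippocampal, 2 pan-myeloid, 2 red blood cell and 2 neuron genes were called in the hippocampus, and 1 gene each of the further disease-associated, signalling, homeostatic and astrocyte lists.

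With Sham 1 kept, the lists gave these counts against Sham. In PEL_3d against Sham the genes called in either direction were 18 of the further disease-associated genes, 7 signalling, 12 homeostatic, 11 pan-myeloid, 6 proliferation, 5 border macrophage, 4 blood, 4 astrocyte and 1 neuron gene, and 0 of the other lists. In PEL_10d against Sham they were 9 further disease-associated, 5 signalling, 5 homeostatic, 10 pan-myeloid, 2 astrocyte, 1 border macrophage and 1 blood gene, and 0 of the other lists. Of the genes named above, Il34 (-0.45) at day 3 and Ctsd (1.47), Spi1 (2.10) and Cdk1 (0.95) at day 10 were not called with Sham 1 kept, with edgeR adjusted p of 0.0656, 0.128, 0.0630 and 0.637.

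In the growth hormone arm the lists were called as follows against Sham_GH, first in PEL_3d_GH and then in PEL_10d_GH. The called shares of border macrophage, blood, T cell and proliferation genes are not read here either. Higher were 22 of 25 and 20 of 24 further disease-associated genes (1 lower each), 11 (1 lower) and 10 of 13 signalling, 14 and 13 of 14 homeostatic, 11 and 11 of 11 pan-myeloid, 7 and 4 of 7 border macrophage, 7 and 7 of 8 blood, and 6 of 6 and 3 of 5 proliferation genes. Higher too were 1 and 7 of 7 oligodendrocyte genes, 2 of 4 and 5 of 5 red blood cell genes (medians 0.90 and 2.49), 5 (2 lower) and 4 of 7 astrocyte genes, 1 of 3 and 1 of 4 T cell genes, and 0 of 2 and 3 of 4 anterior pituitary genes. Lower were 7 and 6 of 8 neuron, 5 and 4 of 11 hypothalamic and 3 and 1 of 8 hippocampal genes, with choroid plexus genes 1 higher and 3 lower, then 1 higher and 2 lower, of 7, and 0 of 2 and 0 of 3 dendritic cell genes called. The summed FPKM of the anterior pituitary genes was 33.0, 56.0 and 5555 in PEL_10d_GH, the highest being replicate 3. In PEL_10d_GH against PEL_3d_GH, 8 of 13 signalling, 10 of 14 homeostatic, 10 of 11 pan-myeloid, 3 of 7 border macrophage and 6 of 6 proliferation genes fell, 3 blood genes fell and 1 rose of 9, and 7 of 7 oligodendrocyte genes rose. In that comparison 3 of 8 neuron, 2 of 8 hippocampal, 1 of 7 choroid plexus and 1 of 3 anterior pituitary genes rose, 1 astrocyte gene rose and 1 fell of 7, and 0 of 11 hypothalamic, 5 red blood cell, 4 T cell and 3 dendritic cell genes were called.

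Promoter windows of 300 bases, from 250 bases before to 50 after the start of transcription (RefSeq, GRCm38.p6), were found for 9 of the 10 members, 11 windows in all, Tyrobp having none. Because the members rose together, 4 short motifs were searched on both strands: GAGGAA, the core bound by PU.1; TGANTCA, a pattern wider than the AP-1 element TGASTCA (S for C or G); CACGTG, an E-box; and TCATGTG, an M-box read by MITF and related factors. GAGGAA was in 28.3% of 32851 promoter windows of that length and in 4 of the 11 member windows. These belonged to 3 of the 9 genes, Clec7a, Spp1 and Trem2, while the Spp1 window at chr5:104435942-104436241 had no match. Both Clec7a windows had a match, but they overlap, starting at chr6:129472730 and chr6:129472736, and hold the same site. TGANTCA was in 7.81% of all windows and in 4 of the 11, those of Itgax, Cst7, Gpnmb and Trem2. TGASTCA, searched after these matches were seen, was in 5.20% and in those of Itgax and Gpnmb alone. CACGTG was in 7.15% and TCATGTG in 3.77% of all windows and in none of the members'. The 6 windows below are those of the members with a match, 1 for each gene, 5′ to 3′ on the strand of the gene, with the matches in capitals (TTCCTC is GAGGAA on the other strand); a match describes the letters only.
Itgax, chr7:128129300-128129599, plus strand: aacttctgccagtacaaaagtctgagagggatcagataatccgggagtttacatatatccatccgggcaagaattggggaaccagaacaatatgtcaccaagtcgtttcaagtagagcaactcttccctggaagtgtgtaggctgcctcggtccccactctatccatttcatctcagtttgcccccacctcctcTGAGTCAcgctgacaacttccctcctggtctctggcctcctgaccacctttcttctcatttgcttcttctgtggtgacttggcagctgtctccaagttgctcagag
Cst7, chr2:150570165-150570464, plus strand: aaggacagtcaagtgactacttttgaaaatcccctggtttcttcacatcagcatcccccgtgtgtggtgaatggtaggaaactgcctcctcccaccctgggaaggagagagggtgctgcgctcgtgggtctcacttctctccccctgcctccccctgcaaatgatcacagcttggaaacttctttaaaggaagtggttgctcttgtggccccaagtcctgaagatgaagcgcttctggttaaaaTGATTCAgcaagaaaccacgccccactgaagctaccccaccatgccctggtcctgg
Gpnmb, chr6:49036268-49036567, plus strand: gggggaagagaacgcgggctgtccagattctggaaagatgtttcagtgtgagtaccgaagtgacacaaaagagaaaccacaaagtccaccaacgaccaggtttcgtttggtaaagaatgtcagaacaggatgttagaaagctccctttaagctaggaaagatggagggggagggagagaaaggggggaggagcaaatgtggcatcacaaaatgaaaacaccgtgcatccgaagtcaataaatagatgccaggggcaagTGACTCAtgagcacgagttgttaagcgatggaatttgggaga
Trem2, chr17:48346151-48346450, plus strand: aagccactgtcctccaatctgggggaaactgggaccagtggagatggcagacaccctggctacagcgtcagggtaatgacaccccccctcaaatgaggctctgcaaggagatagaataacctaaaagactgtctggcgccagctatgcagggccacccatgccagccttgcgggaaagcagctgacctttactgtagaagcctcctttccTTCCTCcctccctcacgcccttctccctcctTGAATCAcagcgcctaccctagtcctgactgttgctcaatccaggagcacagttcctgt
Spp1, chr5:104434861-104435160, plus strand: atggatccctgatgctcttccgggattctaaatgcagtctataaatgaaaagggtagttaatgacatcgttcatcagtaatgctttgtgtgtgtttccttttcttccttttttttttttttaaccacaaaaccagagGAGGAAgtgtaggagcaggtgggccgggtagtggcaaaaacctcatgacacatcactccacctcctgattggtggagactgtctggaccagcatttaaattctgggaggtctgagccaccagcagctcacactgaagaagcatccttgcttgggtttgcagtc
Clec7a, chr6:129472730-129473029, minus strand: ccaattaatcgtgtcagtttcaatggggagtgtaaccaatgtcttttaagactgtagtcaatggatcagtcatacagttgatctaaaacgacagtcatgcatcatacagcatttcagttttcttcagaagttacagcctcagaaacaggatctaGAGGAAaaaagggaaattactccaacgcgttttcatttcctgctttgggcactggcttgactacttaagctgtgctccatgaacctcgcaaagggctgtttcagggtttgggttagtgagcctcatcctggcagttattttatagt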

How the data were processed

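Bulk RNA sequencing of 24 libraries in 8 groups of 3 was used as deposited. The authors aligned reads with Hisat2 v2.0.5 to GRCm38 (mm10) and counted with featureCounts v1.5.0-p3, as their notes state. The deposited table held estimated counts (expected counts) made by the authors. Of these values 8.22% were not whole (further than 0.001 from a whole number), and they were rounded for the tests. Whether that counting step gave the values that were not whole was not tested. The deposited FPKM values, fragments per kilobase of transcript scaled to the library's mapped fragments, are used for levels. Total counts per library ranged from 15095267 to 17973494. Of 22274 genes, 22219 had a symbol and 55 kept their identifier.

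Tests used edgeR 4.0.16 in R 4.3.3 (TMM normalization, filterByExpr with a minimum count of 10, quasi-likelihood F-test, 2-sided), with p adjusted by Benjamini-Hochberg over all tested genes and a threshold of 0.05. Each comparison was fitted on its own groups, and the interaction on the 4 lesioned hypothalamic groups. Log2 fold changes are the first group named over the second. SE is the log2 fold change divided by the square root of F, and the 95% intervals use the t distribution. Intervals for Cst7 with few reference counts come from pooled counts and give counting error only. Groups are said to overlap or not from the FPKM of their libraries. Tables and figures used Python 3.11.15, numpy 2.4.6, pandas 2.3.3, scipy 1.17.1 and matplotlib 3.10.9.

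The library labelled SHAM-1 (Sham 1) was left out because its marker genes go against its tissue label; no other library was. The members and the marker lists were chosen with earlier results of these data known. All members are named; from each list up to 4 called genes with the highest mean FPKM could be named, and P2ry12 and Tmem119 were added after their values were seen. Alternatives tried were DESeq2 1.42.0 and its size factors in edgeR, leaving out each library, a block for replicate number, no count filter, a filter at mean count 50, one fit over all hypothalamic groups, Sham 1 kept, and unadjusted p; for the most similar genes, a pseudocount of 1 and no FPKM filter. The tests were tested on simulated data with 200 planted changes: edgeR recovered 200 with 13 false calls and DESeq2 200 with 17. The planted changes had a log2 size of 2 or 3, in genes with a mean count of at least 50. Every gene was given the same spread, with 3 libraries in each group. The simulation does not show how the tests do with smaller changes, a wider spread or 2 Sham libraries. Log2 values are rounded to 2 decimals and other values to 3 significant digits, keeping the digits left of the point.

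Limits: the p-values measure the spread between libraries, which may be technical, since separate animals are not stated. Sham was labelled day 0, Sham rests on 2 libraries, growth hormone dose and schedule are not given, and bulk RNA does not show which cells carry a transcript. With 3 libraries per group a p that misses the threshold does not show that there is no difference.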

Additional observations from a re-analysis of the deposited data

How the results depend on the processing

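All 10 members kept their direction and were called in PEL_3d against Sham and in both comparisons with Sham_GH under every alternative run. Spp1 and Cd9 kept their fall from day 3 to day 10 in both arms. Where values below moved, the cause was not tested. Over all members, the sign changed in 3 of 120 values in PEL_10d against PEL_3d (Clec7a, Gpnmb), 11 of 120 in PEL_10d_GH against PEL_10d, 12 of 93 in Sham_GH against Sham, 4 of 120 in PEL_10d_GH against PEL_3d_GH, 3 of 86 in the hippocampus, 20 of 180 in the interaction, and 0 in the other comparisons.

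Genes called in PEL_3d against Sham were 1683 with Sham 1 and 3394 (without Sham 2) to 6632 leaving out a library. In PEL_10d against Sham they were 269 with Sham 1, 3631 by unadjusted p and 205 (without Sham 2) to 1486; members called were 6 with Sham 1, 9 in one fit over all hypothalamic groups and 6 to 10 leaving out a library. In PEL_10d against PEL_3d they were 5021 by unadjusted p and 1333 (without PEL_3d 3) to 2799; 7 members were called with the replicate block. In PEL_3d_GH against PEL_3d they were 59 by DESeq2, 8 without a filter, 1 with the block, 9 in one fit over all hypothalamic groups, 1006 by unadjusted p and 1 to 56 (without PEL_3d_GH 3); members called were 2 by DESeq2, 8 by unadjusted p and 0 to 2 leaving out a library. In PEL_10d_GH against PEL_10d they were 39 by DESeq2, 2 in one fit and 906 by unadjusted p, with 2 members by unadjusted p. In Sham_GH against Sham they were 266 by DESeq2, 359 without a filter, 317 with the block, 13 in one fit, 0 with Sham 1, 2187 by unadjusted p and 44 (without Sham_GH 1) to 190; 1 member was called by unadjusted p and 0 to 1 leaving out a library. In PEL_10d_GH against PEL_3d_GH they were 1109 with the block, 4121 in one fit, 4934 by unadjusted p and 704 (without PEL_3d_GH 1) to 4435 (without PEL_3d_GH 3); members called were 4 with the block, with DESeq2 size factors and with the mean count filter, 8 by unadjusted p and 2 to 7 leaving out a library. In the hippocampus they were 231 by DESeq2, 1434 by unadjusted p and 0 to 873 (without HIP_Sham 1), with 2 members by unadjusted p, and in the interaction 440 by unadjusted p.

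Among the folds given, these reversed. Leaving out a library, Clec7a ranged from -0.0379 (without PEL_10d 3) to 0.52 and Gpnmb from -0.55 to 0.33 (without PEL_10d 2) in PEL_10d against PEL_3d. Gpnmb ranged from -0.54 (without PEL_10d_GH 3) to 0.52 in PEL_10d_GH against PEL_10d. In Sham_GH against Sham, values with Sham 1 were 0.12 for Spp1, -0.0843 for Clec7a, -0.22 for Tyrobp and 0.0618 for Csf1; leaving out a library, Clec7a ranged from -0.49 to 0.76, Gpnmb from -0.37 to 0.30, Tyrobp from -0.0263 to 0.18, Lgals3 from -0.54 to 0.12 and Csf1 from -0.0472 to 0.0072. Itgax was -0.0181 with the block and from -0.21 (without PEL_10d_GH 3) to 0.32 leaving out a library in PEL_10d_GH against PEL_3d_GH. Spp1 ranged from -2.06 to 0.44 (without HIP_Sham 1) and Cd9 from -0.33 to 0.0291 in the hippocampus. Tyrobp was -0.0076 in one fit and from -0.23 (without PEL_10d 2) to 0.25 leaving out a library in the interaction.

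Of 27 pairs of libraries with the same replicate number, 6 had deviations from their group means correlated at r over 0.1 (range -0.397 to 0.333), so the numbers were not used as pairs.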
